A study of Mus musculus with 21 samples.

Results

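Of the 45281 probes on the array, 56 formed the set described here: probes bright in undifferentiated mouse embryonic stem (ES) cells and induced pluripotent stem (iPS) cells, dim in cardiomyocytes and fibroblasts, and already lower in day 16 embryoid bodies (EB). They were chosen on quantile normalized log2 intensities averaged over the 3 arrays of a group. A member had to be detected (detection p under 0.01) on all 6 undifferentiated arrays, to lie at least 2 log2 units above the cardiomyocytes of its own line and above fibroblasts in both lines, and to lie at least 1 log2 unit lower in EB than in undifferentiated cells in both lines. Detection left 11833 probes, the first comparison left 407 undifferentiated-enriched probes, and the EB threshold divided these into the 56 members and 351 others. The change in EB and the gaps to cardiomyocytes and fibroblasts are therefore properties by which the probes were picked. Values of these, and counts of calls that rest on the same group means, are given below as a description, and nothing is read from them.

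The study measured total RNA of 7 groups on Illumina mouse arrays, with 3 arrays a group. EB were whole, unselected aggregates grown for 16 days in spinner flasks from iPS cells of line TiB7.4 (passages 5, 7 and 8) or from ES cells of line D3 (passages 7, 9 and 10). Cardiomyocytes (CM) came from the same batches on day 16, after selection with puromycin at 8 µg/ml from day 9. Undifferentiated iPS and ES cells had been kept with LIF on inactivated embryonic fibroblast feeders, and carry-over of feeder cells was not tested. All of these groups, the undifferentiated ones included, carry the construct that the labels call αPIG, and each cell type is represented by 1 line. Fibroblasts were primary tail tip cells of 8 weeks old F1 mice of 129Sv and c57BL6 parents, at passages 2, 3 and 4, and the design text describes their 3 arrays as technical replicates, which were averaged to 1 sample in every test.

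Pluripotent cells are held undifferentiated by a network of transcription factors around Oct4, Sox2 and Nanog, together with chromatin and RNA regulators that this network keeps active. When the cells aggregate into EB and LIF is withdrawn, the network is shut down unevenly as germ layers form, and a whole EB is a mixture of differentiated cells and any cells that remain pluripotent. In such bulk samples, fewer cells of a type and less RNA per cell cannot be told apart.

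Between 13231 and 17866 probes were detected per array. The 13 probes of 8 marker genes of undifferentiated cells summed to an intensity of 12100 to 26200 in iPS EB, against 35400 to 40900 in iPS cells, and to 27700 to 44000 in ES EB, against 36100 to 42300 in ES cells. In CM the same sum lay between 126 and 173 in the iPS line and between 94.6 and 121 in the ES line, and in fibroblasts between 40.2 and 45.8. The 30 probes of cardiomyocyte markers summed to 112000 to 132000 in iPS CM and 130000 to 138000 in ES CM. In EB they summed to 6220 to 13900 in the iPS line and 7640 to 15800 in the ES line. Genes were named through the identifiers that placed these undifferentiated and cardiomyocyte markers in the groups they mark. The sums of these markers are therefore no independent check of the labels. Endoderm markers summed to 395 to 2070 in iPS EB, against 34.3 to 77.6 in iPS cells, and to 430 to 1010 in ES EB, against 20.6 to 25.2 in ES cells. Fibroblast markers summed to 861 to 1920 in iPS EB and 2740 to 3080 in ES EB, and reached 4350 on the array of iPS replicate 1 against at most 1450 on the other iPS arrays. The part of these other cell types in the results below was not tested.

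Of the 56 member probes, 54 were annotated to 1 gene and together named 46 genes, and the probes ILMN_2538242 and ILMN_2714278 had no gene in the annotation used. The set holds 1 of the 8 marker genes of undifferentiated cells, Utf1. The summed markers of undifferentiated cells in ES EB overlapped those in ES cells, while the members were chosen for being lower.

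Measured as background corrected, quantile normalized log2 intensity, in which a probe without signal reads close to 4, the median over the 56 probes was 6.93 in iPS EB, against 8.81 in iPS cells, and 6.97 in ES EB, against 8.68 in ES cells. It was 4.24 in iPS CM, 4.25 in ES CM and 4.25 in fibroblasts. By the values that chose them, the fall in EB had a median of 1.56 log2 units in the iPS line (1.05 to 4.24) and 1.40 in the ES line (1.02 to 3.46). After the offset of 16 was taken off, a median of 26.5% of the undifferentiated intensity was left in iPS EB (1.59% to 46.5%) and 32.8% in ES EB (7.02% to 46.4%). The same medians for the 351 other undifferentiated-enriched probes were 61.9% in the iPS line and 72.7% in the ES line. All 56 were detected on the 3 ES EB arrays and 53 on the 3 iPS EB arrays. Of the 351 other enriched probes, 351 and 350 were so detected. Over all tested probes the shares were 72.5% in ES EB and 73.1% in iPS EB.

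**Figure D1:**
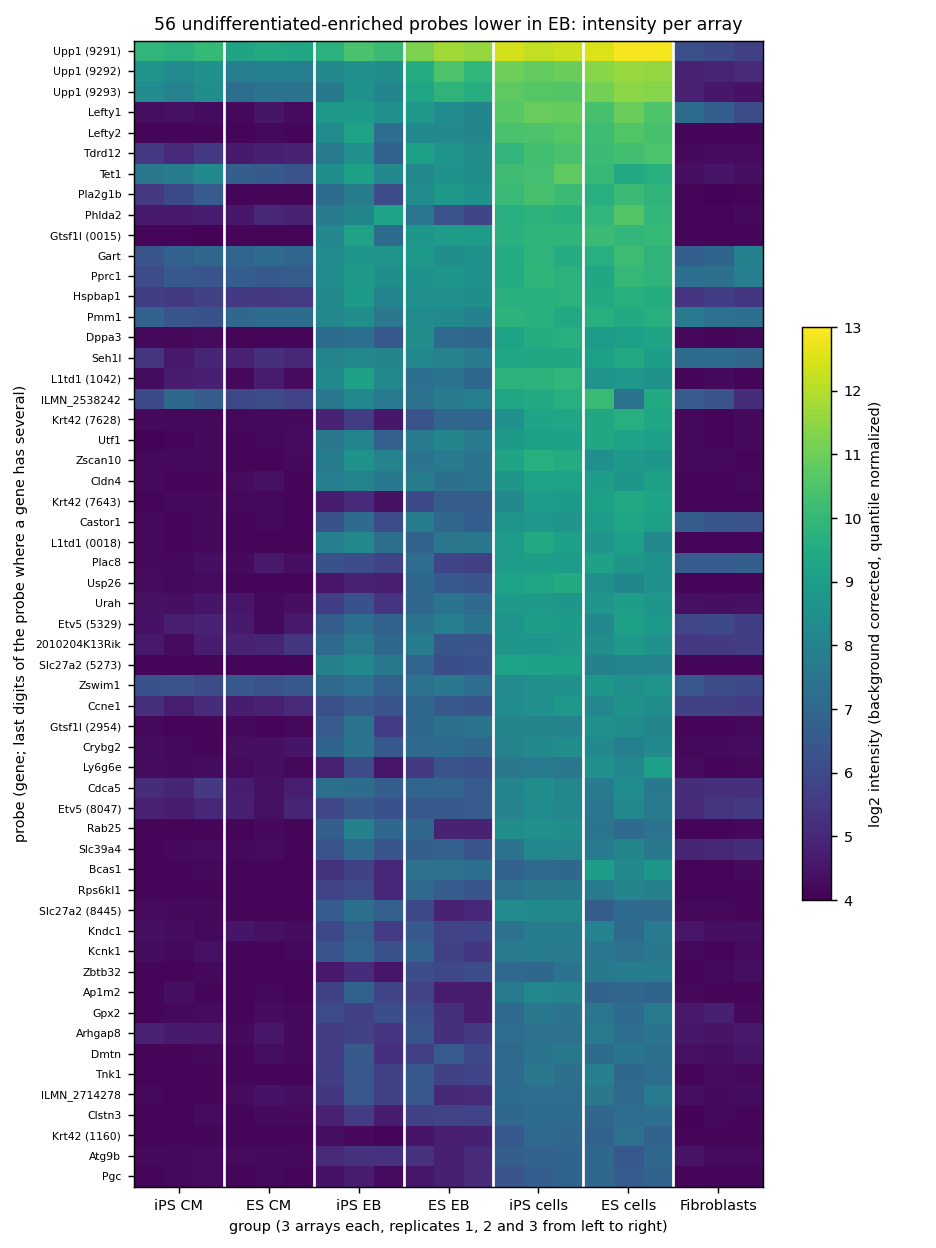
Log2 intensity (colour) of the 56 probes (rows, ordered by their mean over the 6 undifferentiated arrays) on each of the 21 arrays (columns, 3 per group). EB columns lie between the bright undifferentiated columns and the dark CM columns, with set medians of 6.93 in iPS EB and 6.97 in ES EB against 8.81 in iPS cells and 8.68 in ES cells.

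Members known from the pluripotency network were Utf1, a chromatin-bound protein of undifferentiated cells, Dppa3 (also called Stella), which protects DNA methylation in the early embryo, Tet1, an enzyme that oxidises methylated cytosine, and L1td1, an RNA-binding protein derived from a LINE-1 element. Utf1 had 7.57, 8.07 and 6.77 in iPS EB, against 8.90, 9.12 and 9.15 in iPS cells, and 7.74, 8.08 and 7.75 in ES EB, against 9.36, 9.17 and 9.09 in ES cells. Dppa3 had 7.19, 7.29 and 6.50 in iPS EB, against 9.23, 9.57 and 9.63 in iPS cells, and 8.44, 7.08 and 7.02 in ES EB, against 8.96, 9.09 and 9.24 in ES cells. No EB array of either gene reached the lowest undifferentiated array of its line, and for Dppa3 the first ES EB array stood well above the other ES EB arrays. Tet1 kept 27.6% of its intensity in iPS EB and 39.8% in ES EB. The transcription factors Zscan10, Zbtb32 and Etv5 were also members, Zscan10 being a zinc finger protein known to act with Oct4 and Sox2.

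Lefty1 and Lefty2 are secreted inhibitors of Nodal signalling that the Nodal pathway itself induces. Lefty1 had 8.82, 8.91 and 8.55 in iPS EB, against 10.66, 10.91 and 10.87 in iPS cells, and 8.85, 8.35 and 8.12 in ES EB, against 10.38, 10.96 and 10.52 in ES cells. Every EB array lay more than 1 log2 unit below the undifferentiated arrays of its line. Lefty1 kept 23.5% of its intensity in iPS EB and 21.3% in ES EB, and Lefty2 kept 20.1% and 21.4%. On chromosome 1 these genes have 1 protein-coding gene between them, and on chromosome 7 the members Kndc1, a guanine exchange factor, and Utf1 are direct neighbours among protein-coding genes in the RefSeq order.

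Genes known from germ cells were Tdrd12, a Tudor domain protein of the piRNA pathway, Gtsf1l, a relative of a gametocyte-specific factor, and Usp26, an X-linked ubiquitin protease described in testis. Tdrd12 kept 16.4% of its intensity in iPS EB and 33.3% in ES EB. Usp26 kept 1.59% in iPS EB, the lowest share of any member in that line, and 25.9% in ES EB. Both Gtsf1l probes kept 31.2% and 30.8% in iPS EB, and 44.1% and 45.1% in ES EB.

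Among members that encode structural and membrane proteins were Krt42, a type I keratin, Cldn4, a claudin of tight junctions, Rab25, a small GTPase of epithelial endosomes, and Ap1m2, the epithelial subunit of a clathrin adaptor. Krt42 was read by 3 member probes. Its probe ILMN_2877628 had 4.89, 5.55 and 4.58 in iPS EB, against 8.55, 9.24 and 9.30 in iPS cells, and 6.32, 6.97 and 6.93 in ES EB, against 9.35, 9.66 and 9.32 in ES cells. Its share left was 2.56% to 3.19% over the 3 probes in iPS EB and 8.77% to 13.4% in ES EB, and the dimmest of them, ILMN_2701160, was not detected on any iPS EB array. Phlda2, an imprinted gene that limits placental growth, kept the lowest share of any member in ES EB, 7.02%, and 36.8% in iPS EB.

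Enzymes and carriers made up a further group: Upp1, uridine phosphorylase, Slc27a2, a fatty acid transporter and acyl-CoA synthetase, Pla2g1b, a secreted phospholipase, Urah, an enzyme of urate breakdown, Gart, an enzyme of purine synthesis, Pmm1, a phosphomannomutase, and Gpx2, a glutathione peroxidase. The 3 Upp1 probes kept 16.5% to 21.3% in iPS EB and 29.8% to 41.8% in ES EB. The cell cycle genes among the members were Ccne1, cyclin E, which drives entry into S phase, and Cdca5, sororin, which holds sister chromatids together. Ccne1 kept 18.4% in iPS EB and 26.0% in ES EB, and Cdca5 kept 42.7% and 43.4%. The remaining members were 2010204K13Rik, Arhgap8, Atg9b, Bcas1, Castor1, Clstn3, Crybg2, Dmtn, Hspbap1, Kcnk1, Ly6g6e, Pgc, Plac8, Pprc1, Rps6kl1, Seh1l, Slc39a4, Tnk1, Zswim1 and the 2 unnamed probes.

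Promoters of 3 members are printed because these genes stood apart later: Krt42 and Usp26 by their deep fall in iPS EB and Slc27a2 by its higher level in the iPS line. The sequences are RefSeq's for build GRCm38.p6, from 250 bases before to 50 bases after the start site, 5′ to 3′ on the strand of the gene, and capitals mark a match to a searched motif. Krt42 lies on the minus strand (chr11:100269902-100270201), Slc27a2 on the plus strand (chr2:126552774-126553073) and Usp26 on the minus strand (chrX:51801184-51801483).
Krt42: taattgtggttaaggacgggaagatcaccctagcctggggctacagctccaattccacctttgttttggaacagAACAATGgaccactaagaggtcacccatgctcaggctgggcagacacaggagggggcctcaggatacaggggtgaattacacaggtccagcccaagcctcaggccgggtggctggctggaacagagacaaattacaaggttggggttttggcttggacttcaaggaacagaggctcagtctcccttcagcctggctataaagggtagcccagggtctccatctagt
Slc27a2: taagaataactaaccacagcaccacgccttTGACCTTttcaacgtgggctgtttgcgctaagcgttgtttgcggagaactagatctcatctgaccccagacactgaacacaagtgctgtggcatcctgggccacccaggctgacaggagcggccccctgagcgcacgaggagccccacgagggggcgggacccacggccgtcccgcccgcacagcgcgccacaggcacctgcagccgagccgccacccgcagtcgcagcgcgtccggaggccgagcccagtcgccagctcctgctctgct
Usp26: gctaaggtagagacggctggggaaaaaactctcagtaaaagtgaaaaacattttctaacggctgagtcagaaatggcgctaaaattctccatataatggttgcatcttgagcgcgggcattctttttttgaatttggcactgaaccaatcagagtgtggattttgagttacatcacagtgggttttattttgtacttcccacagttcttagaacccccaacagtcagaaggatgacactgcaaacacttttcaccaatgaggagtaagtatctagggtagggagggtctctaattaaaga

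Of the 46 member genes, 36 had a promoter in the RefSeq table, and 4 motifs were searched on both strands, none of them overlapping another in a printed promoter. The octamer ATGCAAAT bound by Oct4 was in the promoters of 0 of the 36 genes, against 1.74% of all 32851 promoters. The SOX motif AACAATG was in 1 gene, Krt42, where it begins at position -176 from the start site on the gene's strand, against 3.78% of all promoters. The KLF motif CCACACCC was in 3 genes (Clstn3, Plac8 and Zbtb32), against 3.56%, and the ESRR motif AAGGTCA in 2 genes (Gpx2 and Slc27a2), against 4.72%. In Slc27a2 the match lies on the opposite strand and begins at position -220. Several promoters of 1 gene were searched where the table lists them, 45 promoters for the 36 genes. A gene counted if any of its promoters matched, while the percentages are shares of single promoters, so the 2 are not counted alike. These counts describe letters in short windows, not binding.

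The threshold on the EB fall was not a gap in the data. Just inside it were Crybg2, Cdca5, Gtsf1l probe ILMN_2732954, Gart and Hspbap1, whose smaller fall of the 2 lines was 1.018 to 1.058 log2 units. Just outside it were Trh, ILMN_1244724, Orc1, 1700029P11Rik and ILMN_2661588, at 0.983 to 0.958. Among the 351 other enriched probes, 85 fell by at least 1 in the iPS line, 21 did so in the ES line and 245 in neither, while 37 were higher in iPS EB than in iPS cells and 61 were higher in ES EB than in ES cells. For 18 of the 46 genes the array has 30 further probes that are not members. Of these, 18 were not detected on all 6 undifferentiated arrays and 12 were. Among the 12, 3 (for Dmtn, Gart and Kcnk1) failed the EB threshold alone, with falls of 0.90 to 0.91 in the line that failed. The rest of the 12 failed a required gap to CM or fibroblasts. They were probes of Ap1m2, Arhgap8, Ly6g6e, Pmm1, Rab25 and Seh1l. Seh1l probe ILMN_3024099 also missed the EB threshold, with changes of -0.48 (ES) and -0.36 (iPS). Seh1l probe ILMN_3096750 met it, with -1.07 and -1.08.

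**Figure D2:**
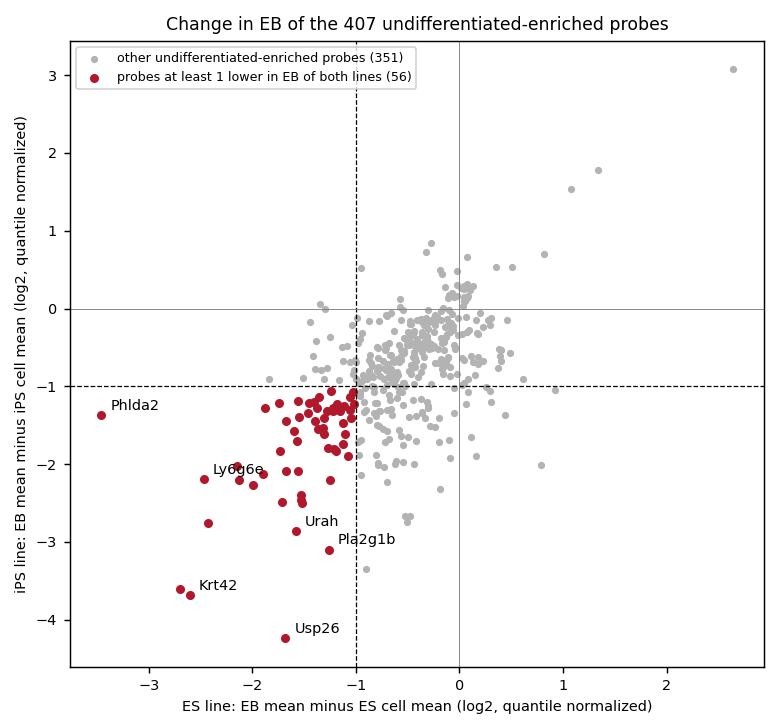
Mean EB value minus mean undifferentiated value (log2, quantile normalized) in the ES line (x axis) and the iPS line (y axis) for the 407 undifferentiated-enriched probes, with the 56 members in red. Dashed lines mark the threshold of -1, members fall on its lower left by construction, and among the members Usp26 and Phlda2 lie farthest off the diagonal in opposite directions.

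Choosing in 1 line and reading the other gave values that the choice did not use, apart from the shared fibroblast arrays and the detection of each probe on all undifferentiated arrays. With the thresholds applied in the ES line alone, 126 probes were chosen, and in iPS EB against iPS cells 106 of them fell and 1 rose (limma, Benjamini-Hochberg adjusted p under 0.05), where 18.7% of all 21047 tested probes fell. Their median log2 change was -1.24, against -0.01 over all tested probes. By the values of the rule, 70 of the 126 fell by at least 1 log2 unit in iPS EB. With the thresholds applied in the iPS line alone, 179 probes were chosen, and in ES EB against ES cells 119 fell and 4 rose, where 16.7% of all tested probes fell. The median change there was -0.88, and by the values of the rule 69 of the 179 fell by at least 1 log2 unit in ES EB. The whole rule was met in both lines by 56 probes. Of the 351 other enriched probes, from which the members had been removed, 58.4% fell in iPS EB and 41.3% in ES EB. Their median changes were -0.67 and -0.45. For the members themselves the choice fixes this comparison: 56 of 56 were lower and 0 higher in EB in each line, beside 18.8% of all tested probes higher in iPS EB and 16.6% in ES EB.

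Lists of pathway genes put the members beside their relatives. Of 62 tested probes for core pluripotency and naive state genes that are not members, 43 were lower and 0 higher in iPS EB than in iPS cells, and 17 were lower and 2 higher in ES EB than in ES cells. Pou5f1 (Oct4) probe ILMN_1252910 averaged 9.36 ± 0.44 in iPS EB, against 10.77 ± 0.22 in iPS cells, and 10.09 ± 0.60 in ES EB, against 10.43 ± 0.15 in ES cells (SD, n = 3 each). Nanog probe ILMN_1245732 averaged 6.94 ± 0.74 in iPS EB, against 8.38 ± 0.20 in iPS cells, and 8.57 ± 0.88 in ES EB, against 8.12 ± 0.16 in ES cells. The other Nanog probe, ILMN_2706623, averaged 10.21 ± 0.62 in iPS EB, against 10.89 ± 0.10 in iPS cells, a log2 difference of -0.68 that did not pass the test (limma adjusted p = 0.069), where ILMN_1245732 differed by -1.43 (0.0033). Of 31 cell cycle probes that are not members, 12 were lower in iPS EB and 8 were lower in ES EB than in the undifferentiated cells, with none higher in either line. These counts leave out the members, which were removed by the same comparison.

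Levels in EB differed between the lines for 24 members. Relative to ES EB, 7 of the 56 were higher in iPS EB and 17 were lower (limma, adjusted p under 0.05), where 12.8% of all tested probes were higher and 12.9% were lower. The median log2 difference of the members was -0.14, against 0.01 over all tested probes, and of the 351 other enriched probes 42 were higher and 97 lower. The lower calls were 30.4% of the members and 27.6% of the other enriched probes. Without ES EB replicate 1 the count of higher members was 13, and without iPS EB replicate 2 the count of lower members was 22.

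Bcas1, a gene known from myelinating cells, had 5.33, 5.78 and 5.00 in iPS EB, against 7.36, 7.35 and 7.28 in ES EB. The groups did not overlap, and the level was 3.90-fold lower in iPS EB (log2 difference -1.96, SE 0.18, adjusted p = 9.3e-07). Usp26 had 4.54, 4.82 and 4.75 in iPS EB, against 7.05, 6.48 and 6.39 in ES EB, a log2 difference of -1.93 (SE 0.16, adjusted p = 1.8e-07). Urah had 5.68, 6.26 and 5.37 in iPS EB, against 6.96, 7.45 and 7.14 in ES EB, a log2 difference of -1.41 (adjusted p = 3e-05). For both, every iPS EB array lay below every ES EB array.

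All 3 probes of Upp1 were lower in iPS EB, by -1.59, -1.44 and -1.41 log2 units (adjusted p = 6.9e-06, 5.5e-05 and 1e-05). Probe ILMN_2959292 had 8.22, 8.55 and 8.44 in iPS EB, against 9.52, 10.50 and 9.96 in ES EB. The 3 probes of Krt42 were lower too, by -1.73, -1.71 and -0.46, where the last, ILMN_2701160, was at least 1.13-fold lower because it was below detection in iPS EB, and its adjusted p was 0.04. Pla2g1b had 7.17, 7.80 and 6.06 in iPS EB, against 8.33, 8.87 and 8.61 in ES EB (log2 difference -1.59, adjusted p = 0.0016), and the transcription factor Zbtb32 differed by -1.28 (adjusted p = 6.3e-06). Rps6kl1, a kinase-like protein, and Clstn3, a calsyntenin, were lower by -1.08 and -0.78.

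On the other side, the 2 probes of Slc27a2 were higher in iPS EB. Probe ILMN_2515273 had 7.91, 8.20 and 7.64 in iPS EB, against 6.93, 6.15 and 6.27 in ES EB, 2.75-fold higher (log2 difference 1.46, SE 0.17, adjusted p = 7.4e-06), and ILMN_2648445 differed by 1.60 (adjusted p = 7.6e-05). Phlda2 had 7.72, 8.12 and 9.18 in iPS EB, against 7.54, 6.31 and 5.88 in ES EB (log2 difference 1.76, adjusted p = 0.0015). Its groups did not overlap, but the highest ES EB array lay just under the lowest iPS EB array. L1td1 probe ILMN_2961042 was higher by 1.29 (adjusted p = 0.00025), while its other probe, ILMN_1260018, differed by 0.45 (adjusted p = 0.19), so the probes of this gene did not make the same call. Rab25 had 6.72, 7.96 and 7.02 in iPS EB, against 6.99, 4.87 and 4.91 in ES EB, and its groups overlapped through ES EB replicate 1 (log2 difference 1.64, adjusted p = 0.0058).

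Of the 24 calls, 7 ended when some 1 library was left out and 17 did not. Tdrd12 (log2 difference -1.05) lost its call without ES EB replicate 1 (adjusted p = 0.062) or iPS EB replicate 3 (0.088), and Zscan10 (0.62) without iPS EB replicate 2 (0.053). Etv5 probe ILMN_1235329 (-0.69) lost it without ES EB replicate 2 (0.12), iPS EB replicate 1 (0.1) or replicate 3 (0.079). The other Etv5 probe, ILMN_2938047, was not among the 24 calls and averaged 6.22 in iPS EB and 6.56 in ES EB. Ap1m2 (1.03) lost it without ES EB replicate 2 (0.061) or 3 (0.057). Krt42 probe ILMN_2701160 lost it under each of 7 libraries, of the EB or ES CM groups, with an adjusted p of at most 0.13. Ly6g6e (-0.84), of the Ly6 family, and Castor1 (-0.69), an arginine sensor upstream of mTORC1, were near the threshold, and leaving out any of 14 and 15 libraries ended their calls, with an adjusted p of at most 0.25 and 0.24.

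The remaining members on the pathway lists did not pass this test. Lefty1 averaged 8.76 ± 0.19 in iPS EB and 8.44 ± 0.37 in ES EB (SD, n = 3 each, limma adjusted p = 0.21), and Lefty2 differed by 0.03 (adjusted p = 0.96). Utf1 differed by -0.39 (adjusted p = 0.21), Dppa3 by -0.52 (0.19), Tet1 by 0.16 (0.69) and Ccne1 by -0.25 (0.35). Among list genes that are not members, and relative to ES EB, 28 of 62 core pluripotency probes were lower in iPS EB and 6 higher. All 8 tested germ cell probes were lower in iPS EB, and 3 of 7 reprogramming factor probes were lower with none higher. Likewise 6 of 31 cell cycle probes were lower and 2 higher, and 18 of 20 probes for primed state and early lineage genes were higher with none lower. The 2 higher cell cycle probes, Mcm6 ILMN_1217331 and Plk1 ILMN_1255053, differed by 5.02 and 3.89. They averaged 4.71 and 4.72 in ES cells, against 9.35 and 8.92 in iPS cells. The Mcm6 probes ILMN_1233857 and ILMN_2803399 differed by -0.12 and 0.1 in EB and were not called. Between iPS EB and ES EB, Zfp42 (Rex1), a marker of naive cells, differed by -3.72 (adjusted p = 2.1e-06). Rhox9, a homeobox gene of germ cells, differed by -3.99 (2.7e-06) and Fgf5, a marker of primed cells, by 3.21 (9e-06). In undifferentiated cells, 14 of the 20 primed state and early lineage probes were already higher in iPS than in ES cells, with 0 lower. Their difference of the EB change was called above 0 for 6 and below 0 for 0. For the 62 core pluripotency probes these counts were 2 higher and 10 lower, and 1 above and 7 below. For the 8 germ cell probes they were 1 higher and 1 lower, and 0 above and 6 below.

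**Figure D3:**
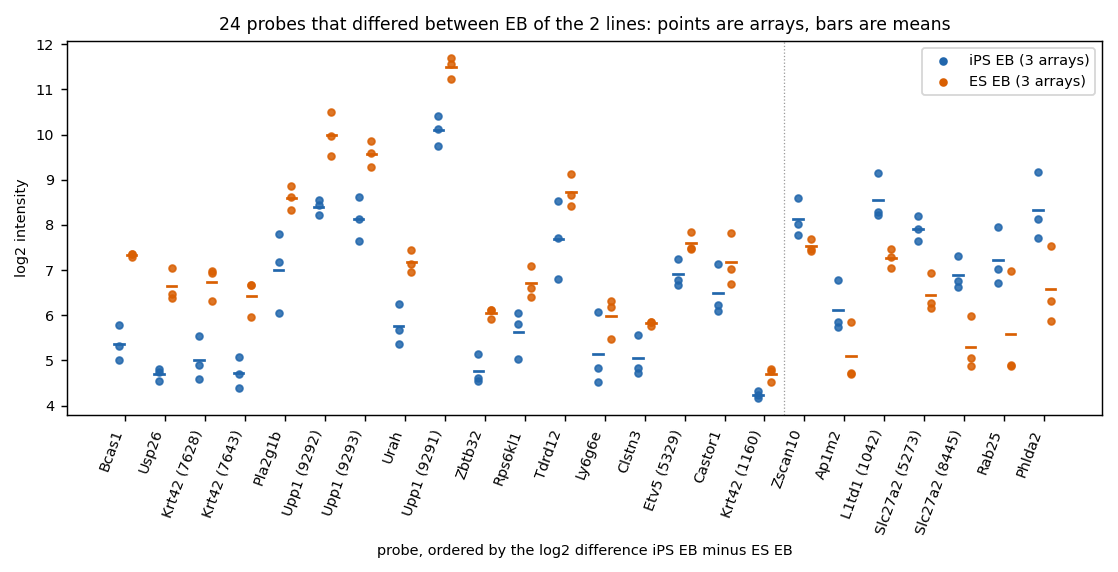
Log2 intensity of the 24 member probes that differed between iPS EB (blue, left of each pair) and ES EB (orange, right of each pair), 3 arrays each as points with their mean as a bar, ordered by the difference. The 17 probes left of the dotted line were lower in iPS EB and the 7 right of it were higher; the arrays overlap for Tdrd12, Ly6g6e, Castor1, Ap1m2 and Rab25.

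The size of the change from undifferentiated cells to EB differed between the lines for 9 members. Both changes had to reach 1 log2 unit by the rule, so the choice of members conditions this comparison. Its counts and p-values are given as a description. The difference of the change, (iPS EB minus iPS cells) minus (ES EB minus ES cells), was above 0 for 1 member and below 0 for 8 at an adjusted p under 0.05, where 3.12% of all tested probes were above and 3.73% below. The other 351 enriched probes had 10 above and 35 below. With culture as a fixed replicate block the counts were 0 above and 3 below. Leaving out 1 library moved them too: 4 above without ES EB replicate 1, 14 below without iPS EB replicate 2, 4 below without ES EB replicate 2, and 5 below without ES EB replicate 3, iPS replicate 3, iPS EB replicate 1 or iPS EB replicate 3.

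Usp26 had the strongest of these differences. It was higher in iPS cells (9.22, 9.33 and 9.49) than in ES cells (8.53, 8.13 and 8.56), a log2 difference of 0.94 (adjusted p = 0.00044), and below ES EB on every iPS EB array, so that the change differed by -2.87 (SE 0.22, adjusted p = 1.9e-06). Urah differed by -1.42 (adjusted p = 0.0032) and Pla2g1b by -1.92 (0.017, and 0.052 without ES EB replicate 2). Phlda2 went the other way: its level was 9.66, 9.82 and 9.72 in iPS cells, against 9.94, 10.58 and 9.97 in ES cells, and the change differed by 2.19 (SE 0.50, adjusted p = 0.014). The Krt42 probes ILMN_2877628 and ILMN_2697643 differed by -1.32 (0.022) and -1.18 (0.021), the Upp1 probes ILMN_2959292 and ILMN_2959291 by -1.0 (0.023) and -0.96 (0.019), and Zbtb32 by -0.72 (0.038). The remaining member probes of Krt42 and Upp1, ILMN_2701160 and ILMN_2959293, were not called. Under the block, Usp26, Urah and Pla2g1b kept their calls, and the calls of Phlda2, Krt42, Upp1 and Zbtb32 ended.

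**Figure D4:**
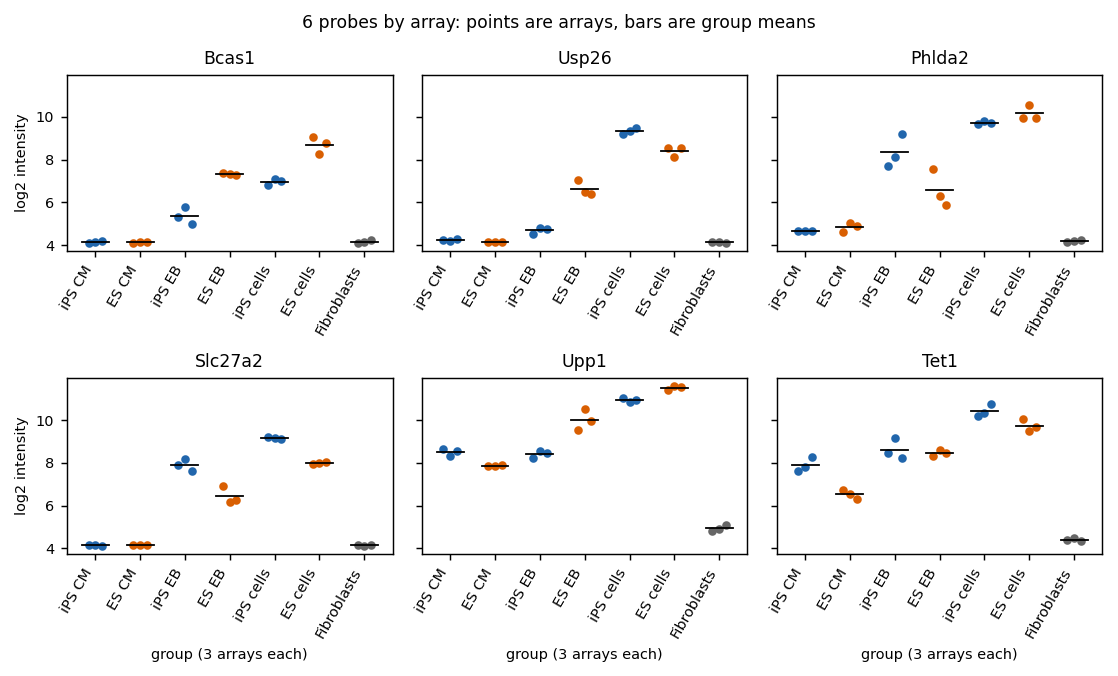
Log2 intensity of 6 member probes on all 21 arrays (blue for the iPS line, orange for the ES line, grey for fibroblasts, bars for group means), with CM, EB and undifferentiated groups from left to right. Usp26 reads 4.54 to 4.82 in iPS EB against 6.39 to 7.05 in ES EB, and Upp1 probe ILMN_2959292 reads 7.84 to 8.66 in CM of both lines.

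In undifferentiated cells 12 members differed between the lines: 7 were higher and 5 lower in iPS cells than in ES cells, where 9.47% of all tested probes were higher and 10.1% lower. Of the higher probes, 5 had the same call in EB (Ap1m2, L1td1 probe ILMN_2961042, both Slc27a2 probes and Zscan10), and of the lower probes 5 did so too (Bcas1, Ly6g6e, Zbtb32 and the Upp1 probes ILMN_2959292 and ILMN_2959293). Bcas1 had 6.82, 7.08 and 6.99 in iPS cells, against 9.04, 8.25 and 8.77 in ES cells (log2 difference -1.72, adjusted p = 5.3e-06). Slc27a2 probe ILMN_2515273 had 9.23, 9.14 and 9.11 in iPS cells, against 7.96, 8.01 and 8.03 in ES cells (1.16, adjusted p = 9.7e-05). Neither pair of groups overlapped. The count of lower members was 1 without iPS replicate 2, 2 without ES replicate 3 or iPS replicate 3, and 3 without ES replicate 2 or iPS replicate 1, with Bcas1 called each time, and Tet1 (0.69, adjusted p = 0.047) lost its call without any of 11 libraries, with an adjusted p of at most 0.2.

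In CM, 35 of the 56 members were detected in neither line, as the rule favours, so a line difference could not be seen for them and the counts cannot be set against all probes. Of the 56, 5 were higher and 1 lower in iPS CM than in ES CM, beside 11.4% higher and 11.8% lower over all tested probes. Tet1 had 7.61, 7.81 and 8.28 in iPS CM, against 6.72, 6.56 and 6.31 in ES CM, 2.58-fold higher (log2 difference 1.37, adjusted p = 4e-04). Pla2g1b had 5.51, 6.03 and 6.60 in iPS CM, while none of the ES CM arrays detected it, so it was at least 2.40-fold higher in iPS CM (adjusted p = 0.00044). The 3 Upp1 probes were higher in iPS CM by 0.53, 0.66 and 0.86, the opposite of their direction in EB. Leaving out iPS CM replicate 1 left 3 higher calls, since Upp1 probes ILMN_2959291 and ILMN_2959292 then had adjusted p of 0.065 and 0.05, and the 1 lower call, Pmm1 (-0.62), ended without ES CM replicate 2 or 3 or iPS CM replicate 2 or 3, while 2 members were lower without ES EB replicate 1. No member was called in the same direction between the lines in undifferentiated cells, EB and CM alike.

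CM lay below EB for most members, in a comparison whose outcome the choice of probes largely sets: CM had to lie at least 2 log2 units below undifferentiated cells, and most members fell by less than that in EB. Relative to EB of the same line, 51 of 56 were lower and 0 higher in iPS CM (29.6% of all tested probes were lower and 28.5% higher), and 56 of 56 were lower and 0 higher in ES CM (31.0% lower and 31.3% higher). All 351 other enriched probes were lower in both lines too. The median log2 difference of the members was -1.80 in the iPS line and -2.13 in the ES line.

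Most members could not be detected in CM, as the rule favours. Of the 56, 37 were detected on no iPS CM array, 40 on no ES CM array, 35 in CM of neither line, and 30 of these also on no fibroblast array. Among the 351 other enriched probes, 109 were detected on no iPS CM array and 137 on no ES CM array. Over all tested probes the shares were 23.3% and 25.7%, and the joint counts have no such share here. For such members the fall is a bound, in which the EB mean is set against the weakest signal that passed detection on each CM array. The probe's own value was used where it was higher, and these values were averaged on the log2 scale over arrays. Gtsf1l probe ILMN_2980015 had 4.15, 4.12 and 4.10 in iPS CM, against 8.18, 9.20 and 7.17 in iPS EB, at least 11-fold lower, and 4.11, 4.11 and 4.12 in ES CM, against 8.78, 8.99 and 8.99 in ES EB, at least 17.6-fold lower. The bounds were 16.4-fold in iPS CM and 12.6-fold in ES CM for Lefty1, and 11.4-fold and 10.7-fold for Lefty2. All arrays of these genes in CM lay below all arrays in EB.

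Upp1 was the exception among bright members in the iPS line. Its 3 probes differed between iPS CM and iPS EB by -0.19, 0.12 and 0.11 log2 units, and between ES CM and ES EB by -2.13, -2.12 and -2.19. Probe ILMN_2959292 had 8.66, 8.34 and 8.57 in iPS CM, against 8.22, 8.55 and 8.44 in iPS EB, and 7.84, 7.87 and 7.90 in ES CM, against 9.52, 10.50 and 9.96 in ES EB. The iPS groups overlapped and the ES groups did not, and whether this step differs between the lines was not tested. The other members not lower by the call were Pgc, the precursor of a gastric protease, at -0.28, and Krt42 probe ILMN_2701160, at -0.10, detected on 1 and 0 of the iPS EB arrays. Tet1 was detected on all CM arrays, with a difference of -0.71 between iPS CM and iPS EB and of -1.92 between ES CM and ES EB.

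In EB the members lay above fibroblasts, which the choice also largely sets, since fibroblasts had to lie at least 2 log2 units below undifferentiated cells. Relative to fibroblasts, 48 of 56 were higher and 0 lower in iPS EB (25.9% of all tested probes were higher and 22.7% lower), and 52 were higher and 0 lower in ES EB (27.0% higher and 24.6% lower). Of the 351 other enriched probes, 345 were higher in iPS EB and 351 in ES EB. The count of lower members was 1 in each comparison without ES EB replicate 1. Tet1 was at least 16.0-fold higher in iPS EB and at least 14.3-fold higher in ES EB than in fibroblasts, and Upp1 probe ILMN_2959291 was 17.4-fold and 46.2-fold higher. Plac8 had 6.22, 6.14 and 5.84 in iPS EB and 7.21, 5.87 and 5.72 in ES EB, against 6.60, 6.60 and 6.71 in fibroblasts, with only ES EB replicate 1 above the fibroblast arrays.

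The arrays of iPS EB were ordered alike over most members. Replicate 2 (passage 7) was the highest of the 3 iPS EB arrays for 51 of 56 members, against 36.0% of all tested probes and 78.3% of the other enriched probes, and replicate 3 (passage 8) was the lowest for 35, against 32.7% of all tested probes and 63.0% of the other enriched probes. The member medians were 6.69, 7.30 and 6.49 in iPS EB replicates 1, 2 and 3, against 7.08, 6.99 and 6.81 in ES EB. On the same iPS EB arrays the markers of undifferentiated cells summed to 21200, 26200 and 12100, those of cardiomyocytes to 8190, 6220 and 13900, and those of endoderm to 395, 1030 and 2070. In iPS cells, replicate 1 was the lowest of its group for 42 of 56 members, against 40.6% of all tested probes and 70.1% of the other enriched probes, with a member median of 8.65 against 8.91 and 8.89, and it is the array with the high fibroblast marker sum. The median SD of a member within a group was 0.43 in iPS EB and 0.28 in ES EB, against 0.14 in iPS cells and 0.21 in ES cells. In the same groups it was 0.30, 0.21, 0.14 and 0.20 over the other enriched probes. Over all tested probes it was 0.17, 0.15, 0.14 and 0.20. The part of EB composition in these differences was not tested.

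**Figure D5:**
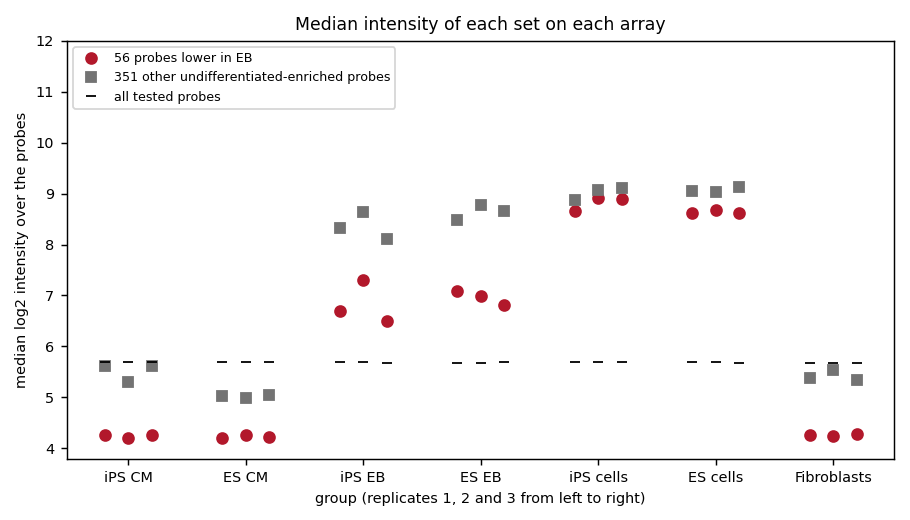
Median log2 intensity of the 56 members (red circles), the 351 other undifferentiated-enriched probes (grey squares) and all tested probes (black dashes) on each array, replicates 1 to 3 from left to right within a group. The members drop to 6.49 to 7.30 in iPS EB and 6.81 to 7.08 in ES EB, while the other enriched probes stay at 8.11 to 8.63 and 8.48 to 8.77.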

How the data were processed

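Arrays were Illumina MouseWG-6 chips hybridised with biotinylated cRNA, per the labels' protocols. Per the file headers, the deposited non-normalized table pairs every probe's average signal, a linear intensity, with a detection p-value on each array. The authors also deposited normalized intensity values. The software used for them is not given here. The 2 tables hold the same 45281 rows of values under different identifiers: rows matched by value to within 6.87e-10 log2 units, only 3 pairs sharing an identifier. Genes were named through the non-normalized table's identifiers, which put 11 of 13 probes of undifferentiated markers and 28 of 30 of cardiomyocyte markers highest in the groups they mark, against 3 and 9 for the other table. GEO's platform annotation gave 34885 probes 1 gene, 18 several and 10378 none.

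Members were chosen on quantile normalized log2 intensity as the report states. Printed levels and tests use neqc of limma 3.58.1 in R 4.3.3 (normexp background with negative controls inferred from detection p, offset 16, quantile normalization, log2). The offset understates changes of dim probes. Probes detected at p under 0.01 on at least 3 of 21 arrays were tested, 21047 in all, in 1 linear model with a mean per group (lmFit, eBayes; 19 samples, 12 residual degrees of freedom) and Benjamini-Hochberg adjustment over all of them for each of 8 comparisons. The number of arrays limits the precision. On data simulated for iPS EB against ES EB over 21047 probes, changes of 0.5, 1 and 2 log2 units were recovered in 17.9%, 76.1% and 98.5% of cases, with 7 of 135 calls false. Only 67, 67 and 66 probes were changed in that simulation, while the data had 5401 calls in this comparison. These rates therefore need not hold for the data.

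The members, the gene lists and the tests were chosen with earlier results of these data known. Named genes were members on the pathway lists, the 10 with the highest undifferentiated mean, and the 4 highest and 4 lowest differences among called members without overlap of each comparison; others named were chosen after their values were seen. Within a line the labels tie EB and CM of 1 number to the same batch, and undifferentiated cells share its passage. Deviations of same-numbered samples within a line correlated at -0.177 to 0.217, over 0.1 in 5 of 18 pairs, with a consensus correlation of 0.0148. The 18 stem cell derived samples are described by the design text as independent biological replicates. Alternatives to background correction, scaling, filter, variance model, samples and block are given in the closing section.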

Additional observations from a re-analysis of the deposited data

Results flagged for a closer look

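The change from undifferentiated cells to EB differed between the lines, by the test of the difference itself, for 9 of the 56 members. The rule had set a minimum for both changes, so the members were picked on values that enter this test. The log2 differences of the change, iPS line minus ES line, were -2.87 for Usp26, -1.92 for Pla2g1b, -1.42 for Urah, -1.32 and -1.18 for the Krt42 probes ILMN_2877628 and ILMN_2697643, -1.0 and -0.96 for the Upp1 probes ILMN_2959292 and ILMN_2959291, -0.72 for Zbtb32 and 2.19 for Phlda2. Of these, 3 kept their call whichever library was left out (Usp26, Urah and Phlda2), and 6 lost it for at least 1 library. Phlda2 lost its call under median scaling, with no detection filter, with only the groups compared and under the replicate block. No group was large enough to look for a single array far from the others.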

How the results depend on the processing

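Median scaling in place of quantile normalization gave 14 members, an EB threshold of 1.5 gave 19 and one of 0.5 gave 177, while the ES line alone gave 126 and the iPS line alone 179. A detection limit of 0.05 gave the same 56. The authors' table also gave 56 rows, which its identical values fix in advance, and neqc values gave 80 that include the 56, and leaving out 1 library gave 54 to 62.

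With median scaling, 10 members were lower for iPS EB against ES EB, 4 were higher and 1 lower in iPS than in ES cells, 0 were lower in iPS CM than in ES CM, and 0 had a difference of the EB change above 0 and 2 below. Median scaling moved the median of all tested probes by 0.108 for iPS EB against ES EB, -0.119 for iPS CM against iPS EB and -0.217 for ES EB against fibroblasts. With no detection filter these counts were 2 lower in iPS cells, 0 lower in iPS CM, and 0 above and 3 below for the difference of the change. Fitting only the groups compared gave 3 higher in iPS EB, and 0 above and 2 below. With culture as a fixed replicate block the difference of the change had 0 above and 3 below, and the block moved no other count by over 1.5 times (50 members lower in iPS CM than in iPS EB).

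Leaving out 1 library gave 6 to 13 higher and 12 to 22 lower for iPS EB against ES EB, 6 to 8 higher and 1 to 7 lower for iPS against ES cells, 3 to 6 higher and 0 to 2 lower for iPS CM against ES CM, and 1 to 4 above and 4 to 14 below for the difference of the change. It gave 56 lower in ES CM and 44 to 51 in iPS CM against EB, and 44 to 50 higher and 0 to 1 lower in iPS EB and 50 to 53 higher and 0 to 1 lower in ES EB against fibroblasts. Over 143 calls of single probes and 4388 alternatives, 4169 kept direction and call, 219 lost the call and 0 reversed; these include the comparisons of EB with CM and fibroblasts, which the choice of members largely sets. The cause of these moves was not tested. Each cell type is 1 line, so line and cell type cannot be told apart, and probes near the background floor limit what can be read in CM and fibroblasts.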
